A study of Mus musculus with 4 samples.

Results

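A set of 40 genes that encode the machinery of mitosis was followed in forelimbs of mouse embryos with and without a working Shh gene. The set covers the spindle checkpoint, the mitotic kinases, the kinetochore, the spindle motors, the proteins of the midzone and cytokinesis, and chromosome structure. Members were listed by name, and a listed gene was kept if its deposited value was at least 1 CPM (CPM are read counts scaled to library size) in at least 2 of the 4 libraries. All 40 listed genes met this rule, out of 17712 genes in the table, of which 13224 met the same minimum and were tested. The lowest member count in a library was 962 reads, so the low-value minimum removed no member.

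The study compared 2 genotypes by RNA sequencing, wild type and Shh null, with 2 libraries of each. Both came from forelimbs of littermate Swiss Webster embryos, an outbred stock, at 33 to 35 somites. The age label gives embryonic day E10.25 and the source label E10.5. No other allele or agent is named for either group, the null allele is not described, and no label says whether embryos were pooled. Sex-linked reads, described below, show cells of both sexes in every library. The design text calls the replicates technical, and separate animals are not named. A limma p-value here thus rests on the spread between libraries within the groups, estimated jointly for both and moderated across all tested genes. It may not cover the spread between embryos.

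Mitosis begins when cyclin-dependent kinase 1 drives chromosome condensation and spindle assembly. Kinetochores, protein assemblies on the centromeres, then bind spindle microtubules, and the spindle checkpoint delays anaphase until every chromosome is attached. Most genes for these proteins are transcribed late in the cell cycle, in G2 and M phase. Their promoters often carry a cell cycle genes homology region (CHR), a short element bound by the DREAM and MuvB complexes, with CCAAT boxes bound by NF-Y upstream of it. In the early limb bud most mesenchymal cells are cycling, and Sonic hedgehog, secreted from the posterior margin, is known to act on both the patterning and the growth of that mesenchyme.

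The feature that most members shared, and that the list of names did not use, was the CHR element in the promoter. RefSeq promoter windows (GRCm38.p6, from 250 bases before to 50 bases after the annotated start) were matched by symbol for 34 of the 40 members. The CHR letters searched were TTTGAA or TTTAAA on both strands (TTTAAA reads the same on both), and 28 of the 34 members (82.4%) held at least 1 match. Among 9690 tested genes with a window the share was 22.2%, and among all 27025 RefSeq genes it was 30.6%. A CCAAT box (CCAAT, both strands) was found in 24 of the 34 members (70.6%), against 43.3% of tested genes, and both elements together in 23 members, against 10.7%. In 25 of the 28 members the CHR nearest the start had its centre within 50 bases of it. This share was not computed for other genes, and 13 members had more than 1 match, some of them further away. A match is a description of the letters, not of a bound site.

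The following stretches run from 100 bases before to 30 bases after the start and are shown for the 4 members with the lowest and the 4 with the highest log2 fold change among those with a window. They are read 5′ to 3′ on the gene's strand, with CHR letters in capitals. The first 4, on the plus strand, lie at chr6:66535121-66535250 (Mad2l1), chr5:30666786-30666915 (Cenpa), chr5:45669825-45669954 (Ncapg) and chr2:119618198-119618327 (Nusap1).
Mad2l1: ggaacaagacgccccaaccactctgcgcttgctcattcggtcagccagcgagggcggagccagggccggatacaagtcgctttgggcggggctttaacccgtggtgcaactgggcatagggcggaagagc
Cenpa: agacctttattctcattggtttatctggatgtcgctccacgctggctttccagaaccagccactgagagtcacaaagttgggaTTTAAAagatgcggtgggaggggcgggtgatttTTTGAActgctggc
Ncapg: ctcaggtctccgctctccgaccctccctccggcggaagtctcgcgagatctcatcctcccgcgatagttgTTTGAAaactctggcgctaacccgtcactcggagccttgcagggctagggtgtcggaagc
Nusap1: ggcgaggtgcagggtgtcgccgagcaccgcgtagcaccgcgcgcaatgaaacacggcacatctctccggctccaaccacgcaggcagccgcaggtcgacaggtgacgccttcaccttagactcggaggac

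The other 4 lie at chr15:102296193-102296322 (Espl1, plus strand), chr7:135716350-135716479 (Mki67, minus strand), chr3:135212463-135212592 (Cenpe, plus strand) and chr9:61946770-61946899 (Kif23, minus strand).
Espl1: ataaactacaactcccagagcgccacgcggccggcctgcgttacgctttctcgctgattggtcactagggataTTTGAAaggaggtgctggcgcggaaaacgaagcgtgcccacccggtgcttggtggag
Mki67: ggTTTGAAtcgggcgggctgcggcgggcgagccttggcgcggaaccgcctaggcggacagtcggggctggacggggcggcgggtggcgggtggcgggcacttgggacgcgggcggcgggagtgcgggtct
Cenpe: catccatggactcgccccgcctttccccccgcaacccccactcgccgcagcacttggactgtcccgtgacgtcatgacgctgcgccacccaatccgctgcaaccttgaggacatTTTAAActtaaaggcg
Kif23: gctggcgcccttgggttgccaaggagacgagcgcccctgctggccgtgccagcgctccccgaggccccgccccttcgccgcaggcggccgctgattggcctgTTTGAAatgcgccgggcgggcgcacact

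Both sets hold promoters with the element, and Mad2l1 and Nusap1, in the first, have no match in their whole window of 300 bases. Bub1, Nuf2, Kif18a and Ncaph also had none. The median log2 fold change was −0.14 for the 28 members with a CHR and −0.19 for these 6, a description without a test. For Mad2l1 the stretch shown ends before the gene start in GENCODE M21 (66535390), so its lack of a match holds for the RefSeq start used. For Cenpa the stretch begins after the GENCODE M21 start (30666777), so the distances of its CHR matches also hold for the RefSeq start only. The E2F letters searched (TTTGGCGC or TTTCGCGC, both strands) were found in 2 members, Cdk1 and Kif18a (5.88%, against 1.90% of tested genes). The GLI letters (GACCACCCA, both strands) were found in 1 member, Espl1 (2.94%, against 0.289%). For comparison, the CHR letters were in 50.7% of 75 other mitotic genes and in 25.9% of 27 DNA replication genes with a window, and the E2F letters in 33.3% of the latter.

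**Figure D1:**
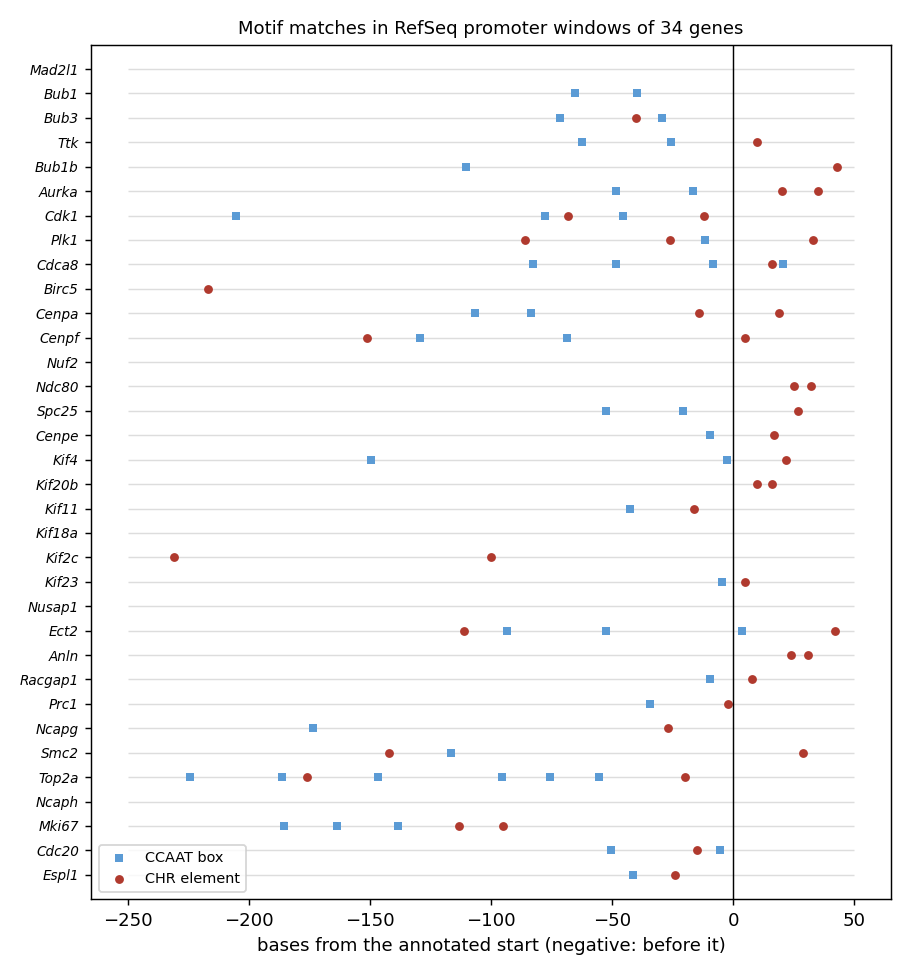
Positions of CHR (circles) and CCAAT box (squares) matches in the promoter windows of 34 members, as distance in bases from the annotated start, 1 row per gene. The CHR nearest the start lies within 50 bases of it in 25 of the 28 genes that have one, and 13 genes have more than 1. The share among other genes was not computed.

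The libraries held 29620468 and 18456502 (wild type) and 23206944 and 21489093 (Shh null) reads assigned to genes. Shh was measured at 11.4 and 7.88 CPM (wild type) and 3.15 and 2.42 CPM (Shh null) (limma adjusted p = 0.00615), in the direction of the labels. The forelimb gene Tbx5 was measured at 61.5 to 80.2 CPM in the 4 libraries. Of 3 hindlimb markers, Pitx1 was at 0.0351 to 0.457 CPM and below the minimum for testing, Tbx4 at 3.11 to 4.53 CPM, and Isl1 at 1.61 and 1.27 CPM (wild type) and 4.52 and 2.84 CPM (Shh null) (limma adjusted p = 0.0652). Of 5 limb mesenchyme markers, 3 were called higher in Shh null (Prrx1, Twist1 and Lhx2), and their summed level over the list was 741 and 785 CPM in wild type against 1116 and 1091 CPM in Shh null. Of 4 tested macrophage markers Cx3cr1 was called higher, with the list of 6 at 8.25 and 9.59 against 18.6 and 17.5 CPM. The summed level of the 5 erythroid markers differed between libraries of 1 group, at 10973 (wild type 1), 2938 (wild type 2), 3725 (Shh null 1) and 6329 CPM (Shh null 2), and none was called. The summed ectoderm markers (348 to 391 CPM over all libraries, with Fgf8, a gene of the apical ridge, called lower among 10) and endothelial markers (148 to 203 CPM) overlapped between the groups. In whole forelimbs, a smaller share of dividing cells and less RNA of these genes per dividing cell cannot be told apart, and the part that any of these cell types plays in the mitotic genes was not tested. All 5 sex-linked genes listed were called (2.48% of tested genes), Xist higher in Shh null and 4 Y-linked genes lower. Every library held reads of Xist, which female cells express, and of Y-linked genes, so each held cells of both sexes. The mix of sexes thus differed between the groups, and its part in the values of the members cannot be told apart from that of genotype.

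The members spanned a wide range of expression. As reads are counted over a whole gene, levels were compared per kb of annotated exon (GENCODE M21 basic set, an approximation, since the annotation used by the authors is not given). Top2a, the topoisomerase that untangles sister chromatids, stood at 505 ± 12.7 CPM per kb in wild type (SD, n = 2) and took 21.5% of the summed CPM of all 40 genes in wild type and in Shh null alike. Smc4, a condensin subunit, and Kif11, the motor that pushes spindle poles apart, followed at 145 ± 8.98 and 143 ± 6.44 CPM per kb, a difference smaller than their SDs. Cdk1 (109 ± 1.43) and the midzone microtubule bundler Prc1 (103 ± 0.726) came next in wild type. Kif20a and Bub1b, at 98.8 and 98.7 CPM per kb, did not differ beyond their spread. At the lower end were Espl1, which encodes separase (10.4 ± 1.47), Mad2l1 (17.4 ± 0.193, over 8.03 kb of exon), Incenp (22.9 ± 0.197), Spc24 (24.3 ± 1.48), Cenpf (24.9 ± 1.97) and Plk1 (27.1 ± 2.03). The low place of Mad2l1 rests on the exon length used. Its wild-type mean of 140 CPM was near that of Ndc80 (142 CPM), which stood at 64.7 CPM per kb over 2.20 kb.

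By these exon lengths, subunits of 1 complex were not at equal transcript levels per kb. How far the ratios depend on the lengths used was not tested. In the NDC80 complex, the rod that joins kinetochore and microtubule, wild-type levels ran from 24.3 CPM per kb for Spc24 to 74.0 for Spc25, a ratio of 3.05, with a ratio of 2.84 in Shh null. In the chromosomal passenger complex they ran from 22.9 (Incenp) to 58.7 (Birc5), and among the 4 condensin genes from 70.0 (Ncaph) to 145 (Smc4). The 2 genes of centralspindlin, the midzone complex of a kinesin and a GTPase-activating protein, were close, with Kif23 at 50.2 ± 7.96 and Racgap1 at 59.4 ± 3.29 CPM per kb.

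**Figure D2:**
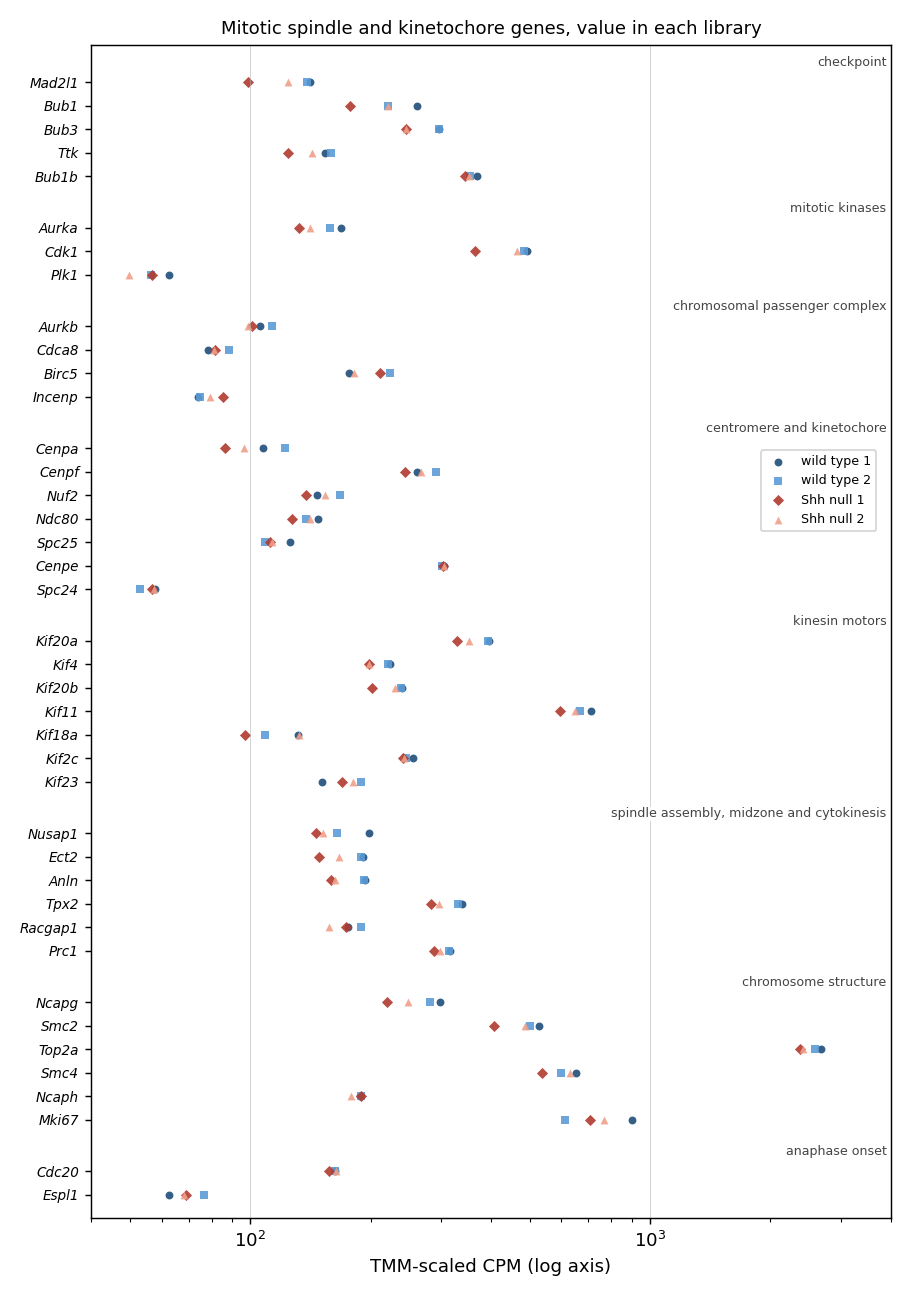
Deposited value of each of the 40 genes in each library (log axis, TMM-scaled CPM), grouped by role. Top2a lies at 2369.6 CPM or more in all libraries, Shh null 1 is the lowest library for 26 genes, and wild type 1 is the highest for 25.

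None of the 40 genes differed between the genotypes at the threshold. By limma, at an adjusted p under 0.05 over all tested genes, 0 were called lower and 0 higher, where 1.24% of tested genes were called lower, 1.24% higher and 2.48% in all. Over all tested genes this was 164 lower and 164 higher, a split that became 123 and 243 with library sizes unadjusted by TMM (the trimmed mean of M-values, the scaling in the deposited values). The smallest adjusted p was 0.150 (Ncapg). edgeR and DESeq2 on the recovered reads also called 0 members, with smallest adjusted p-values of 0.167 and 0.141. At an unadjusted p under 0.05 in limma, 8 members were lower (background 9.02%) and 0 higher (background 9.50%). In edgeR and DESeq2, 8 members each were at this level in either direction. The share of all tested genes at this level was not computed for those 2 tools, so their counts have no background here. The log2 fold changes, on the scale of log2(CPM + 1), ran from −0.34 (Mad2l1) to 0.14 (Incenp), with standard errors of 0.092 to 0.16. In 39 of the 40 genes the 95% interval of the fit lay within 1.5-fold in either direction, and the exception, Mad2l1, reached from −0.61 to −0.068.

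The small differences leaned one way. The fitted change was below 0 in 36 of 40 members (50.1% of tested genes), with a median of −0.14, where all tested genes had a median of −0.00048. Both Shh null libraries were below both wild-type libraries in 22 members (25.0% of tested genes) and above both in 1, Incenp (25.1%). The groups overlapped in the other 17. Much of this lean was shared by genes of similar abundance: of the 4062 tested genes within the members' range of mean CPM, 56.2 to 2515, 70.4% were below 0, with a median of −0.090, and 40.9% had both Shh null libraries below both wild-type libraries. Its size also followed the scaling. With quantile normalization the members' median was −0.024, and 25 of 40 were below 0, 11 having changed sign. With library sizes unadjusted by TMM it was −0.058 and 27 were below 0, 9 having changed sign, while the median of all tested genes moved to 0.073. The median was −0.080 without Shh null 1, the library with the lowest member values.

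**Figure D3:**
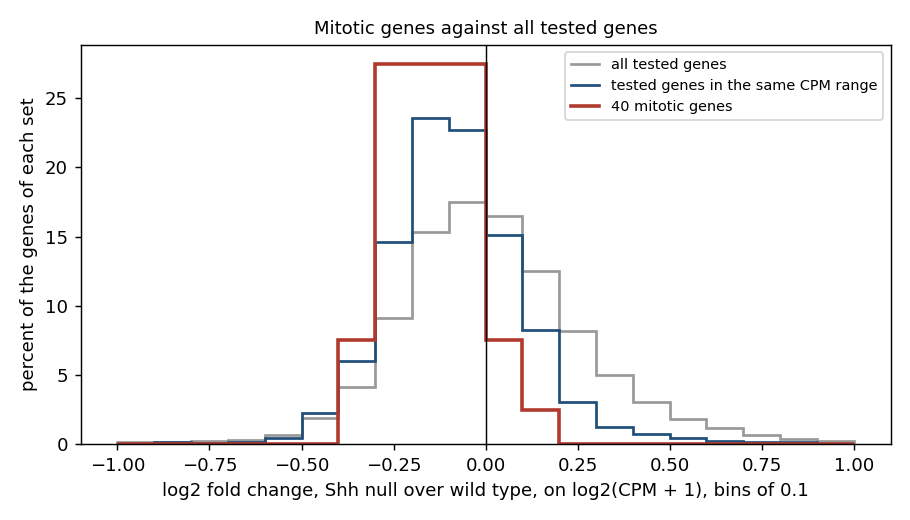
Log2 fold changes of the 40 mitotic genes (red), of all tested genes (grey) and of tested genes in the same range of mean CPM (blue), as the percent of each set per bin of 0.1; 0.885% of all tested genes lie outside the axis. On the deposited scale 36 of the 40 genes lie below 0, but so do 70.4% of the genes in the same CPM range, and the members' median moves from −0.14 to −0.024 with quantile normalization, where 11 members change sign.

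The libraries of a group did not behave alike. Shh null 2 was below Shh null 1 in 9 of 40 members (50.7% of tested genes) and above it in 31, and wild type 2 was below wild type 1 in 27 (51.7%). Relative to wild type 1, the members' median log2 difference was −0.20 in Shh null 1 and −0.10 in Shh null 2, and relative to wild type 2 it was −0.16 and −0.11. The difference between wild type 2 and wild type 1 had a median of −0.020, but single members moved much further. Mki67, which encodes the proliferation marker Ki-67 of the mitotic chromosome surface, was measured at 901 and 612 CPM (wild type) and 706 and 769 CPM (Shh null). The Shh null values thus lay inside the wild-type range, and the wild-type libraries differed by more than any fitted genotype difference in the set. Kif18a, a motor that restrains chromosome movement at the metaphase plate, spread almost as widely in Shh null (96.7 and 132 CPM) and overlapped with wild type (132 and 109 CPM). Mki67 and Kif18a, like Bub3 and Anln below, were chosen after their values were seen.

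Checkpoint genes held some of the larger differences, with all 5 fitted values below 0 (median −0.27, or −0.17 with quantile normalization) and none called. Of all tested genes 50.1% were below 0, and of those in the members' CPM range 70.4%. All fitted values of the kinase, midzone, chromosome structure and anaphase onset groups were below 0 too. Mad2l1 encodes MAD2, the core of the inhibitor that the checkpoint builds. It was measured at 141 and 139 CPM (wild type) and 98.4 and 124 CPM (Shh null). Both Shh null values were below both wild-type values, at means of 140.0 ± 1.55 and 111 ± 18.4 CPM (SD, n = 2) and a log2 fold change of −0.34 ± 0.12 (SE; limma adjusted p = 0.176). Bub1, a kinase that recruits checkpoint and centromere proteins, was measured at 261 and 220.5 CPM (wild type) and 178 and 221 CPM (Shh null). Shh null 2 was level with wild type 2, so the groups overlapped (log2 fold change −0.28 ± 0.13, adjusted p = 0.287). Bub3, the WD40 protein that brings BUB1 and BUBR1 to kinetochores, was measured at 296 and 297 CPM (wild type) and 246 and 245 CPM (Shh null), and here the libraries of each group lay close together (log2 fold change −0.27 ± 0.092, adjusted p = 0.156). Ttk, the kinase MPS1 at the top of the checkpoint, had a log2 fold change of −0.23 without overlap. Bub1b, which encodes BUBR1 and had the highest level per kb of the group, was measured at 369 and 355 CPM (wild type) and 345 and 353 CPM (Shh null) (log2 fold change −0.052 ± 0.094).

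Of the mitotic kinases, Aurka, which matures centrosomes and the spindle, was measured at 169 and 158 CPM (wild type) and 132 and 141 CPM (Shh null). The groups did not overlap, with a log2 fold change of −0.25 ± 0.097 (SE; limma adjusted p = 0.198). Cdk1, the kinase that starts mitosis, was measured at 492 and 483 CPM (wild type) and 365 and 464 CPM (Shh null). Shh null 1 stood well below the other 3 libraries and Shh null 2 just below wild type (log2 fold change −0.24 ± 0.12, adjusted p = 0.327). Plk1, the polo kinase of mitotic entry and cytokinesis, overlapped between the groups at 59.5 ± 4.47 and 53.3 ± 4.98 CPM (SD, n = 2).

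The chromosomal passenger complex, which corrects faulty attachments and then moves to the midzone, showed no common direction. Incenp, its scaffold, was measured at 73.9 and 74.8 CPM (wild type) and 85.1 and 79.0 CPM (Shh null). Both Shh null values were above both wild-type values, the only such case among the members (log2 fold change 0.14 ± 0.099, adjusted p = 0.49). Birc5, which encodes survivin, was measured at 177 and 223 CPM (wild type) and 211 and 182 CPM (Shh null), with the Shh null values between those of wild type. Aurkb, the kinase of the complex, had means of 109.5 ± 5.17 and 99.6 ± 1.65 CPM (SD, n = 2), and Cdca8, which encodes borealin, 83.3 ± 7.17 and 81.3 ± 0.457 CPM (SD, n = 2).

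Among centromere and kinetochore genes, Cenpa had the lowest fitted value. It encodes the histone H3 variant that marks centromeres and was measured at 107 and 122 CPM (wild type) and 86.3 and 96.4 CPM (Shh null). The groups did not overlap, at means of 115 ± 10.6 and 91.3 ± 7.16 CPM (SD, n = 2) and a log2 fold change of −0.33 ± 0.11 (SE; limma adjusted p = 0.155). The other 6 genes had log2 fold changes between −0.12 and 0.044, and all of them overlapped between the groups. Spc25, with the highest level per kb of the group, was measured at 126 and 109 CPM (wild type) and 112 and 114 CPM (Shh null). The remaining subunits of its complex had log2 fold changes of −0.092 (Ndc80), −0.11 (Nuf2) and 0.044 (Spc24). Cenpe, a kinesin that carries chromosomes to the spindle equator, varied least, from 302 to 306 CPM over the 4 libraries. Cenpf, a large protein of the outer kinetochore, had a log2 fold change of −0.12.

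The 7 kinesin genes had a median log2 fold change of −0.14, or −0.032 with quantile normalization. In 5 of them both Shh null libraries were below both wild-type libraries (25.0% of tested genes, and 40.9% of those in the members' CPM range). Kif20a encodes a motor of the midzone and cytokinesis. It was measured at 396 and 394 CPM (wild type) and 329 and 352 CPM (Shh null) (log2 fold change −0.21 ± 0.096, limma adjusted p = 0.275), and 31.8% of its exon bases are also exon of Cdc23 on the other strand. Kif11 was measured at 710.2 and 666 CPM (wild type) and 595 and 649.9 CPM (Shh null), so that Shh null 2 was close to wild type 2 while Shh null 1 was lower. Kif4, a chromosome-bound motor and the only X-linked member, was measured at 224 and 221 CPM (wild type) and 198 and 198 CPM (Shh null) (log2 fold change −0.17 ± 0.092, adjusted p = 0.361). Sex-linked genes differed between the groups, with Xist at 225 and 152 CPM (wild type) and 522 and 468 CPM (Shh null) and Ddx3y, a Y-linked gene, at 119 and 106 CPM (wild type) and 39.1 and 42.3 CPM (Shh null), and their part in the Kif4 values was not tested. Kif4 shares 15.1% of its exon bases with Pdzd11 on the other strand, and 1 pseudogene carries its name. Kif20b, a cytokinesis motor, and Kif2c, which depolymerizes microtubules at centromeres, had log2 fold changes of −0.15 and −0.054, and Kif23, the motor of centralspindlin, 0.044 with overlapping groups.

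All 6 genes of spindle assembly, midzone and cytokinesis had both Shh null libraries below both wild-type libraries, as had 25.0% of tested genes and 40.9% of those in the members' CPM range, and none was called. Nusap1, which binds and stabilizes spindle microtubules near chromosomes, was measured at 199 and 165 CPM (wild type) and 146 and 152 CPM (Shh null). The wild-type libraries differed from each other by more than the gap between the nearest libraries of the groups (log2 fold change −0.28 ± 0.11, limma adjusted p = 0.218). Ect2, the exchange factor that switches on RhoA for cytokinesis, was measured at 191 and 189 CPM (wild type) and 148 and 166 CPM (Shh null) (log2 fold change −0.27 ± 0.099, adjusted p = 0.181). Anln, a scaffold of the contractile ring, was measured at 194 and 192 CPM (wild type) and 159 and 163 CPM (Shh null), with small spread in both groups (log2 fold change −0.26 ± 0.092, adjusted p = 0.166). Prc1, the gene of this group with the highest level per kb, was measured at 317 and 313 CPM (wild type) and 289 and 298 CPM (Shh null), and 21.8% of its exon bases are shared with Rccd1 on the other strand. Tpx2, which activates Aurora A on the spindle, and Racgap1 had log2 fold changes of −0.20 and −0.14.

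Among genes of chromosome structure, Ncapg, a condensin subunit, had the smallest adjusted p of the set. It was measured at 297 and 282 CPM (wild type) and 220.0 and 248 CPM (Shh null). Both Shh null values were lower, at means of 289.6 ± 11.1 and 234 ± 20.0 CPM (SD, n = 2) and a log2 fold change of −0.31 ± 0.10 (SE; limma adjusted p = 0.15), and 20.8% of its exon bases are shared with Lcorl on the other strand. Its partners in condensin had fitted values nearer 0: Ncaph, the kleisin that closes the ring, had −0.038 and Smc4 −0.10, both with overlapping groups, and Smc2 −0.21 without overlap. Differences between subunits were not tested. Top2a was measured at 2685 and 2591 CPM (wild type) and 2369.6 and 2415 CPM (Shh null), a log2 fold change of −0.14 ± 0.13 (adjusted p = 0.592).

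Neither gene of anaphase onset was called. Cdc20, which activates the ubiquitin ligase that starts anaphase, was measured at 163 and 162 CPM (wild type) and 157 and 164 CPM (Shh null). The groups overlapped, with a log2 fold change of −0.019 ± 0.092 and a 95% interval from −0.23 to 0.19. Espl1, whose product cleaves cohesin, overlapped as well (−0.013 ± 0.12).

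**Figure D4:**
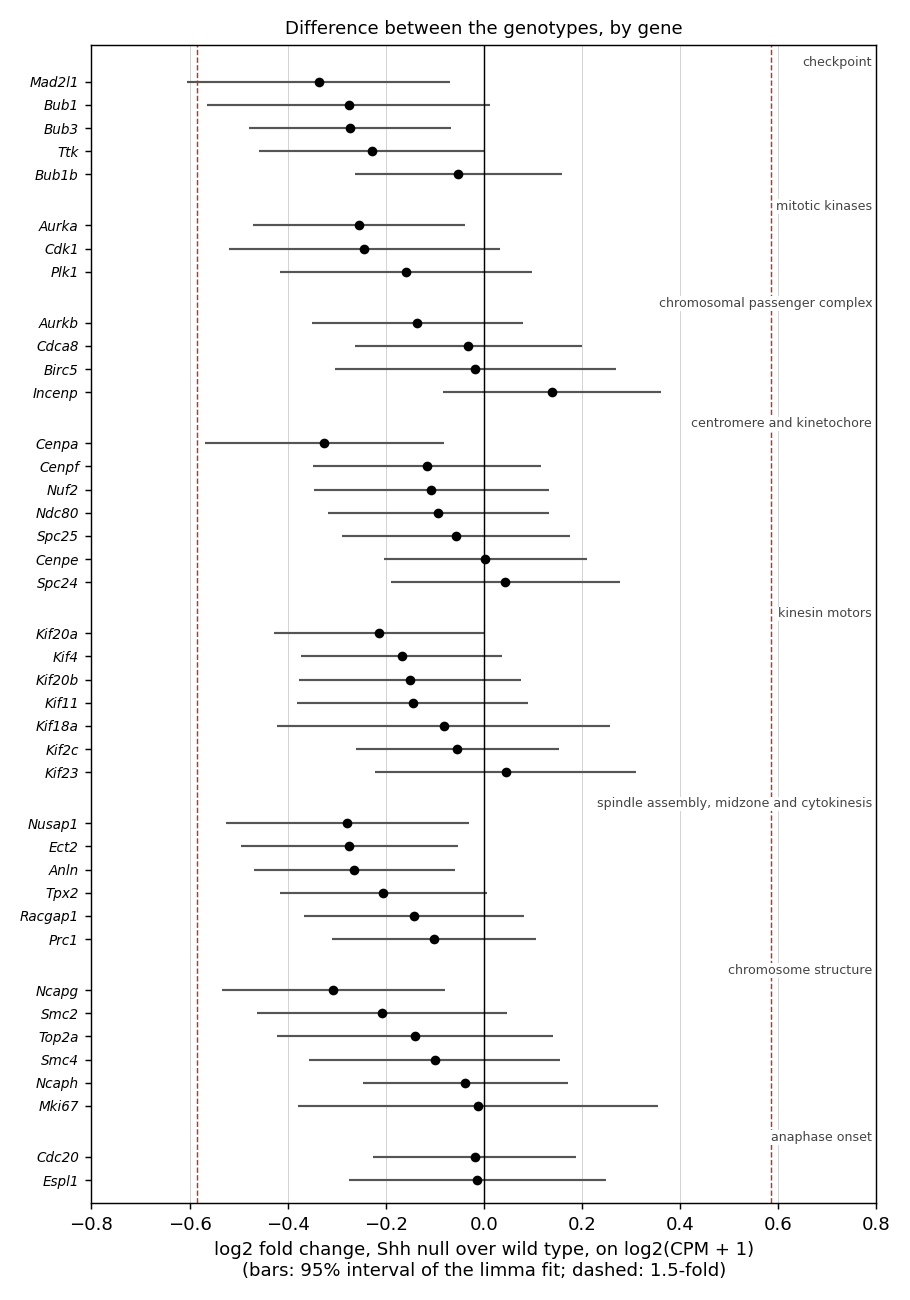
Log2 fold change of each gene (points; Shh null over wild type, log2(CPM + 1)) with the 95% interval of the limma fit (bars), grouped by role. Most points lie left of 0 on the deposited scale, 11 of the 40 signs change with quantile normalization, and all intervals but that of Mad2l1 lie within 1.5-fold (dashed lines).

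Summed over the 40 genes, the level was 12529 and 12004 CPM (wild type) and 10775 and 11494 CPM (Shh null). Shh null 1 was the lowest library and Shh null 2 lay between it and wild type. The means of 12267 ± 371 and 11135 ± 509 CPM (SD, n = 2) stood −9.23% apart (Shh null relative to wild type), and an exact two-sided permutation test gave p = 0.33, the smallest that 2 against 2 libraries allow. As a share of all gene-assigned reads, before TMM scaling, the sum was 1.21% and 1.18% (wild type) and 1.12% and 1.17% (Shh null), a relative difference of −4.07%. The exact 95% binomial interval of the shallowest library, wild type 2, ran from 1.18% to 1.19% and covers counting error only. By role the sum was lower in Shh null by 14.9% for the kinases, 13.1% for the checkpoint and 13.0% for spindle assembly, midzone and cytokinesis. It was lower by 1.59% for the passenger complex and 1.30% for anaphase onset, where the groups overlapped and where the direction turned as a share of all reads. With quantile normalization the median log2 fold change was above 0 for both (0.053 and 0.053) and for chromosome structure (0.0037), and below 0 for the other 5 groups.

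**Figure D5:**
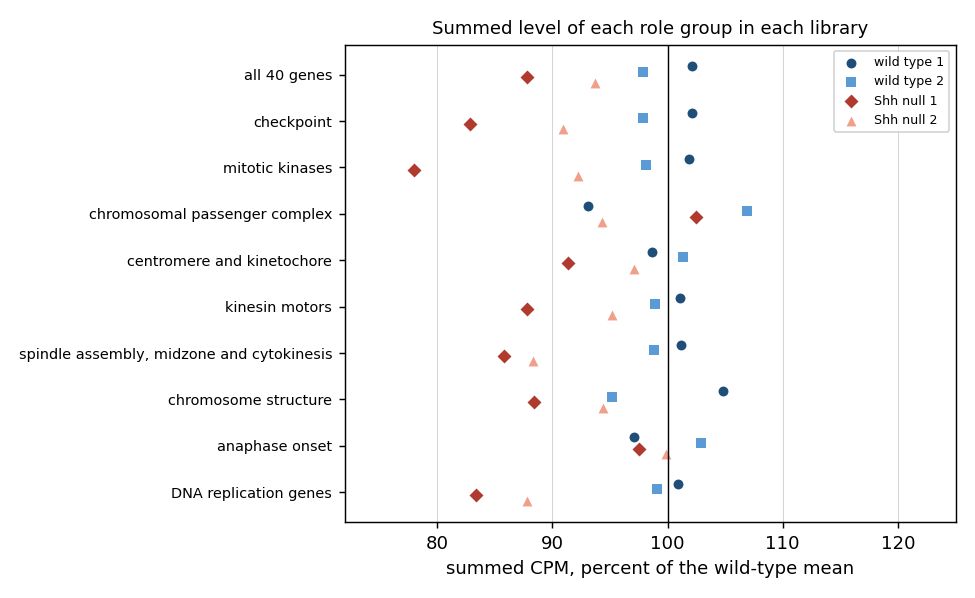
Summed CPM of all 40 genes, of each role group and of the DNA replication genes in each library, as a percent of the wild-type mean. On the deposited scale the sums of the kinase, checkpoint and midzone genes lie lower in both Shh null libraries, as do those of the kinetochore, kinesin, chromosome structure and replication genes, while those of the passenger complex and of anaphase onset overlap; with quantile normalization the median log2 fold change of the last 2 and of chromosome structure is above 0.

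Other mitotic genes were counted in the same way. Of 94 further genes written down by name, 93 were in the table and tested, and limma called 0 higher and 0 lower, as edgeR and DESeq2 called 0. At an unadjusted p under 0.05 in limma, 9 were lower and 1 higher, where 9.02% and 9.50% of all tested genes were. Their median log2 fold change was −0.11, with 72 below 0, and 35 had both Shh null libraries below both wild-type libraries. Of all tested genes, 50.1% and 25.0% were so placed, and of those in the CPM range of the 40 members, 70.4% and 40.9%. Some of the 93, such as Cenpw and Anapc2, lay below that range. At the extremes were Cenpw, a centromere histone-fold gene, at 37.4 and 27.9 CPM (wild type) and 18.0 and 28.6 CPM (Shh null) (log2 fold change −0.49 ± 0.21), and Anapc2, a subunit of the anaphase-promoting complex, at 17.2 and 19.7 CPM (wild type) and 23.6 and 24.8 CPM (Shh null) (0.38 ± 0.13). The groups overlapped for Cenpw and did not for Anapc2. In the other lists the lowest and highest log2 fold changes were −0.29 (Mastl) and 0.056 (Bora) among entry genes, and −0.27 (Kif15) and 0.26 (Kifc1) among spindle genes. Cenpt was highest among kinetochore genes (0.25) and Cdc27 lowest among condensin, cohesin and anaphase genes (−0.33). The 11 cyclin and mitotic entry genes had the lowest median of these lists, −0.22.

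DNA replication genes, which act in S phase, were set beside the mitotic genes. Of 34 such genes, 2 were called lower (1.24% of all tested genes) and 33 had a fitted value below 0 (50.1%, and 70.4% of those in the members' CPM range), with a median of −0.23, or −0.13 with quantile normalization. Cdc6, which loads the replicative helicase, was measured at 175 and 164 CPM (wild type) and 120.1 and 121 CPM (Shh null) (log2 fold change −0.48 ± 0.094, limma adjusted p = 0.0291). Ccne1, which encodes cyclin E1, was measured at 121 and 133 CPM (wild type) and 88.9 and 94.5 CPM (Shh null) (−0.46 ± 0.10, adjusted p = 0.0457). Chaf1a had the highest value of the list, 0.16. The summed CPM of the 40 mitotic genes divided by that of the replication genes was 1.79 and 1.75 (wild type) and 1.87 and 1.89 (Shh null). The ratio was thus higher in both Shh null libraries (1.77 ± 0.0315 and 1.88 ± 0.018, SD, n = 2), with an exact two-sided permutation p of 0.33, the smallest possible here.

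The authors' deposited table was read for the same genes. In it, none of the 40 (0 genes) had a false discovery rate under 0.05 in the authors' deposited table, where 4.01% of its genes did. The lowest false discovery rate of a member in the authors' deposited table was 0.200 (Cenpa), and 36 of the 40 log2 fold changes there were below 0, from −0.33 (Mad2l1) to 0.14 (Incenp). It rests on the same libraries and is not independent of the values above.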

How the data were processed

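Gene expression was measured by RNA sequencing in 4 libraries, 2 wild type and 2 Shh null, grouped by their labels. TopHat2 2.0.9, SAMtools, HTSeq 0.5.4p5, edgeR 3.4.2 and genome build mm10 are named per the submitters' processing notes, without roles. Which annotation was counted, and with which strand option, is not given in the sources used here. The deposited signal values are CPM per gene on a scaled library size. Every value was a whole multiple of the worth of 1 read in its library (100% whole, tolerance 0.001), and CPM recomputed from these reads with TMM factors differed by at most 4.95e-10%. The authors' deposited table gives a log2 fold change, a p-value and an FDR per gene.

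The main test was limma 3.58.1 (R 4.3.3) with an intensity trend on log2(CPM + 1), over genes at 1 CPM or more in at least 2 libraries, two-sided, with Benjamini-Hochberg adjustment over all tested genes and a threshold of 0.05. It was tested on simulated data. Recovered reads were also tested with edgeR 4.0.16 (quasi-likelihood) and DESeq2 1.42.0. Total reads per library set the counting precision. The alternatives were other filters, pseudocounts, scalings, tests, a replicate block and leaving out each library.

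Members and lists were chosen with earlier results of these data known. Values in every library are given for the 6 members with the largest absolute log2 fold change, for the member of each role group with the largest change and with the highest level per kb, and for the X-linked Kif4. Promoter windows came from RefSeq (GRCm38.p6).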

Additional observations from a re-analysis of the deposited data

How the results depend on the processing

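No member was called under the other filters, pseudocounts, scalings, tests or single-library omissions that were run, and the crossed pairing described last was the exception. Over all tested genes, where the main counts were 164 higher and 164 lower, there were 79 and 91 with no filter on low values and 253 and 273 with DESeq2. Leaving out 1 library at a time gave 15 to 386 higher and 41 to 416 lower, both lowest without Shh null 1 and highest without wild type 2. The members' median log2 fold change of −0.14 was −0.024 with quantile normalization and −0.058 with library sizes unadjusted by TMM, where the summed level differed by −0.060 on the log2 scale in place of −0.14. It ran from −0.18 to −0.080 when 1 library was left out, nearest 0 without Shh null 1. An arm left with 1 library was taken to vary like the other. The cause of these shifts was not tested.

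Signs of uncalled members near 0 changed as follows. With quantile normalization the log2 fold changes were Prc1 0.018, Smc4 0.0074, Spc25 0.024, Kif2c 0.065, Bub1b 0.068, Ncaph 0.064, Cdca8 0.017, Cdc20 0.065, Birc5 0.089, Espl1 0.042 and Mki67 0.080. With library sizes unadjusted by TMM, a scaling chosen after seeing the data, they were Spc25 0.023, Kif2c 0.026, Bub1b 0.028, Ncaph 0.042, Cdca8 0.047, Cdc20 0.061, Birc5 0.062, Espl1 0.066 and Mki67 0.069. With median-ratio scaling Cenpe was at −0.0075. Without 1 library the values ran for Smc4 from −0.21 to 0.014, Kif18a from −0.31 to 0.14, Spc25 from −0.16 to 0.046, Ncaph from −0.080 to 0.0047, Cdca8 from −0.12 to 0.055, Cdc20 from −0.047 to 0.010, Birc5 from −0.18 to 0.15, Espl1 from −0.16 to 0.13, Mki67 from −0.29 to 0.27, Cenpe from −0.0066 to 0.013, Spc24 from −0.017 to 0.10 and for Kif23 from −0.12 to 0.21.

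The replicate block, the label number as a term, gave 220 higher and 176 lower genes and 0 members called (smallest adjusted p 0.204). Same-numbered libraries had a correlation of deviations of −0.203 over 13224 genes, so the numbers were not taken as pairs. A replicate block with crossed numbers, chosen after seeing the data, gave 641 higher and 745 lower of the 13224 tested genes. It called 8 of the 40 members lower (Mad2l1, Cenpa, Ncapg, Nusap1, Bub1, Ect2, Bub3 and Anln). The lowest member count in a library was 962 reads, and with 2 libraries a group the spread between libraries rests on few values.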
